A study of Mus musculus with 2 samples.

Results

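The regions described here are Arid1b ChIP-seq peaks whose summit lay inside a protein-coding gene, more than 5 kb from every protein-coding gene boundary and more than 1 kb from any boundary of a long non-coding RNA (lncRNA) gene. Of the 8318 peaks in the deposited list, 862 met this rule (10.4%, exact binomial 95% interval 9.72 to 11.0). They lay in 552 genes, called hosts below. The remaining 7456 peaks comprised 4977 within 1 kb of a coding gene boundary, 1309 inside a gene closer to its ends, 1079 outside coding genes and 91 deep inside a gene but within 1 kb of a lncRNA boundary.

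Chromatin came from primary dental mesenchyme cells, which the labels also call DPCs, grown from the apical part of mandibular first molars of wild-type C57BL/6 mice at postnatal days 3.5 to 7.5. They were cultured with 10% FBS. An Arid1b immunoprecipitate, 1 library, was set against input chromatin, 1 library from the same kind of culture that saw no antibody. The series as a whole concerns tooth development after loss of Arid1a, but both libraries used here were from wild-type cells, so no comparison of genotypes was possible. Neither library had a replicate, and no test between samples was therefore made. Intervals below cover counting error only, and neighbouring peaks of a host are not independent of each other. Read totals were not used here.

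Arid1b is a DNA-binding subunit of the BAF (SWI/SNF) complex, which uses ATP to slide and evict nucleosomes. Arid1a and Arid1b are alternative subunits of that complex, and BAF occupies both promoters and distal enhancers. A region deep inside a gene can be an intronic enhancer, an internal promoter from which a shorter transcript starts, or transcribed sequence without a regulatory role. Exons and introns were not used here, so peaks were placed by gene boundaries and by the transcription starts that RefSeq lists for GRCm38.p6, the assembly that mm10 names.

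The strongest deep intragenic peaks were of both kinds, near an internal start and far from any listed start. Among the 15 peaks of highest fold (the authors' linear ratio of ChIP to input, read where each peak is tallest), 6 lay within 1 kb of an internal start of their host, 3 lay in hosts without a listed start and the others lay farther from any listed start of the host. The peak of highest fold in the whole list, 17.1 (counting interval 14.6 to 19.9), was a deep intragenic peak in Sp2, a zinc-finger transcription factor gene, at chr11:96977034-96978125 (mm10). Its summit lay 128 bp upstream of an internal Sp2 start and 5143 bp from the nearest coding boundary, just inside the distance limit. The next highest were in Aff1 at 8.47 (6.75 to 10.5), a gene for a transcription elongation factor, and in Cln8 at 8.26 (6.56 to 10.3), a gene for an endoplasmic reticulum membrane protein.

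The 250 bases before 6 of these starts are shown because 6 of the 15 strongest deep intragenic peaks sat at them, and 2 further internal starts, 1 in Sp2 and 1 in Mia2, are shown because they lay in the same genes and had no peak. Sequences are from RefSeq, GRCm38.p6, 5′ to 3′ on the strand of the gene, in lower case. Capitals mark every match on either strand to the GC box GGGCGG, the CCAAT box, the ETS factor site CCGGAAG, the NRF1 site GCGCANGCG, the AP-1 site TGANTCA, the cAMP response element TGACGTCA, the E-box CACGTG or the TATA box motif TATAAA, and overlapping matches run together.
Sp2, chr11:96977689-96977938, minus strand, peak of fold 17.1: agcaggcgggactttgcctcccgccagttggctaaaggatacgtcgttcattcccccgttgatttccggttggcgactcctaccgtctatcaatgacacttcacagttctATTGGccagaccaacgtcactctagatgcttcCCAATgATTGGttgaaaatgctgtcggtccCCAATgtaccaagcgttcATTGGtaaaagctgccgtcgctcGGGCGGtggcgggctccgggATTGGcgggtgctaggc
Sp2, chr11:96968666-96968915, minus strand, no peak: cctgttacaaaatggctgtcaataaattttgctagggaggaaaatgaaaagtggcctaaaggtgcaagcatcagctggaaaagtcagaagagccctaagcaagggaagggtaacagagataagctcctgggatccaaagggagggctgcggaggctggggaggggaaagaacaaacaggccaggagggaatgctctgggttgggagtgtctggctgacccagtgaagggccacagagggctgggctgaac
Aff1, chr5:103753912-103754161, plus strand, peak of fold 8.47: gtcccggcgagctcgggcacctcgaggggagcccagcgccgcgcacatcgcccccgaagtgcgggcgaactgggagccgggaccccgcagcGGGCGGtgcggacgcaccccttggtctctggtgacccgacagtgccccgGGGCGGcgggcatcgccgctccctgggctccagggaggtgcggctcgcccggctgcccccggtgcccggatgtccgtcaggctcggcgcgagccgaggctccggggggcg
Arntl, chr7:113207215-113207464, plus strand, peak of fold 7.02: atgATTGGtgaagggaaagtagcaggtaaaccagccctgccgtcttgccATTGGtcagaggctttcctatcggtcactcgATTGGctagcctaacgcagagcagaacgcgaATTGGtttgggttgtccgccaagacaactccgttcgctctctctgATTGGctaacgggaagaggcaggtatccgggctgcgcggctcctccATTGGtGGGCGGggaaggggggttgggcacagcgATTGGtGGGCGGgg
Phip, chr9:82975490-82975739, minus strand, peak of fold 6.71: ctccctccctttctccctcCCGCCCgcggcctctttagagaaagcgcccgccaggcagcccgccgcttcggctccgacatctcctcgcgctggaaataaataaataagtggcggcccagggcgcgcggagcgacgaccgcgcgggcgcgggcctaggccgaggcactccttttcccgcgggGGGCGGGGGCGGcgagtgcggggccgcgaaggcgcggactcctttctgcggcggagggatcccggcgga
Mia2, chr12:59131231-59131480, plus strand, peak of fold 6.61: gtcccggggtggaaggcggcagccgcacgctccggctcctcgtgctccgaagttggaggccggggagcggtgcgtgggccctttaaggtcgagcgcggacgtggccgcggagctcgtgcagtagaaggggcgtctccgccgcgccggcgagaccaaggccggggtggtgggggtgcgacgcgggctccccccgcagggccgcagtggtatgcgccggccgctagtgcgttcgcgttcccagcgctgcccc
Mia2, chr12:59129498-59129747, plus strand, no peak: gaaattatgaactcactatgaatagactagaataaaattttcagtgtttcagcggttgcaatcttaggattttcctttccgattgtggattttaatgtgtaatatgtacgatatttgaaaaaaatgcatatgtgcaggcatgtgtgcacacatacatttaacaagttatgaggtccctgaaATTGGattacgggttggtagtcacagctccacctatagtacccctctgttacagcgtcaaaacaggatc
Cops3, chr11:59839768-59840017, minus strand, peak of fold 6.40: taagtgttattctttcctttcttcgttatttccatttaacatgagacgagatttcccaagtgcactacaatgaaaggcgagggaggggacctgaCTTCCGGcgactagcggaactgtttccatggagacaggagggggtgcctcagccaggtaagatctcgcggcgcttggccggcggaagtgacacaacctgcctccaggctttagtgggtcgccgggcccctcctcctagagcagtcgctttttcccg

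The 6 starts with a strong peak did not share a motif. The Sp2 start held 6 CCAAT matches and 1 GC box, and the start of Arntl, which encodes the circadian clock protein Bmal1, held 7 CCAAT matches and 2 GC boxes. The starts of Aff1 and of Phip, a gene for a bromodomain and WD-repeat protein, held no CCAAT match but 2 and 3 GC boxes. The start of Cops3, a COP9 signalosome subunit, held 1 ETS match, and that of Mia2, which acts in export from the endoplasmic reticulum, held none of the motifs. In both genes shown with 2 starts, the number of CpG dinucleotides in the 250 bases differed between them. In Sp2 it was 18 at the start with a peak and 1 at the start without, and in Mia2 it was 36 at the start with a peak and 5 at the start without.

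That contrast was seen over all internal starts. RefSeq listed 2007 starts of 1500 genes that lay in deep interior, meaning the bases of a gene that meet the distance rule, and 226 of them had a deep intragenic peak within 1 kb (11.3%, 9.91 to 12.7). In the 300 bases from 250 before to 50 after the start, the median CpG count was 23 at internal starts with a peak, against 5 at the 1781 without one and 13 over all 21263 listed starts of protein-coding genes. Median GC content was 65.2% at internal starts with a peak, against 51.3% at those without. A ratio of observed to expected CpG of at least 0.6, a usual limit for a CpG island, was reached by 77.4% of internal starts with a peak, against 18.3% of those without and 47.7% of all listed starts. Read the other way, 34.9% (30.8 to 39.3) of the 501 CpG-rich internal starts had a peak, against 3.39% (2.53 to 4.43) of the 1506 others.

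Motif shares differed between starts with and without a peak for some motifs and not for others. GGGCGG was present at 69.0% (62.6 to 75) of internal starts with a peak, against 27.1% (25.1 to 29.2) without and 46.2% of all listed starts. Among CpG-rich internal starts alone those shares were 78.9% (72.1 to 84.7) with a peak and 70.2% (65.0 to 75.2) without, and these intervals overlapped. CCAAT was present at 32.3% (26.3 to 38.8) of internal starts with a peak, against 35.5% (33.3 to 37.8) without and 38.2% of all starts. TATAAA was present at 3.98% (1.84 to 7.42) of internal starts with a peak, against 13.3% (11.8 to 15) without and 12.6% of all starts, and at 1.14% (0.139 to 4.07) against 5.83% (3.55 to 8.95) among CpG-rich internal starts. The GCGCANGCG match was present at 11.1% (7.29 to 15.9) with a peak, against 2.36% (1.70 to 3.17) without and 8.58% of all starts, but at 12% and 11.0% among CpG-rich starts. CCGGAAG was found at 10.2% (6.56 to 14.9) with a peak, against 3.43% (2.63 to 4.38) without and 11.6% of all starts, but at 11.4% (7.12 to 17.1) and 9.51% (6.55 to 13.2) among CpG-rich starts. TGANTCA, the AP-1 site, was found at 5.75% (3.10 to 9.64) with a peak, against 9.15% (7.85 to 10.6) without and 6.99% of all starts. The remaining pair of motifs differed little: CACGTG was found at 5.31% with a peak and 5.05% without, and TGACGTCA at 1.33% with a peak and 1.18% without. A match is a description of the letters in this window.

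Of the 675 deep intragenic peaks whose host had a listed start, 238 lay within 1 kb of an internal start (35.3%, 31.7 to 39.0), in 199 hosts. That window was 3.69 of 665 Mb of deep interior, or 0.555%. Peak density was 64.5 per Mb (56.6 to 73.3) within 1 kb of an internal start, against 0.661 per Mb (0.60 to 0.726) in the rest of the interior of the same genes. Another 187 peaks were in hosts for which no start was listed. They included all 44 deep intragenic peaks on chromosome 18, so statements on peaks at starts leave that chromosome out.

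Peaks at internal starts sat mainly just downstream of the start. The summit was downstream in 184 (77.3%, 71.5 to 82.5) and upstream in 54, with a median offset of 180 bp downstream and an interquartile range of 44.2 to 332. Of the 238, 198 lay within 500 bp, and 51 (21.4%) covered the start itself. The 3810 gene-boundary peaks at a listed start had nearly the same geometry, with 75.5% downstream, a median offset of 192 bp and 22.4% covering the start. Peaks at internal starts had a median fold of 3.82 and a median width of 312 bp, close to the 3.82 and 307 bp of peaks at coding boundaries. The 437 peaks farther from listed starts had 3.51 and 271 bp, and lay a median of 24.0 kb from the nearest start of their host, with 80 of them 1 to 5 kb away.

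**Figure D1:**
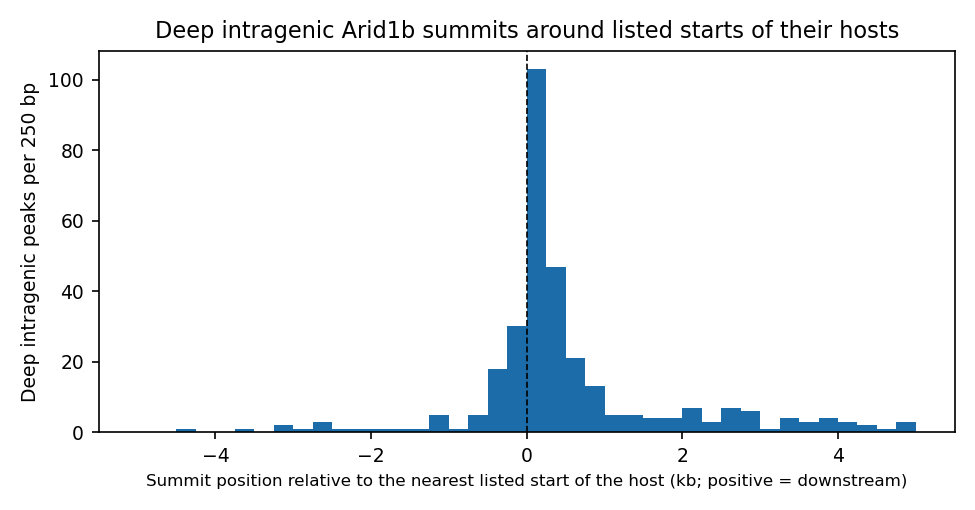
Number of deep intragenic summits (vertical axis, per 250 bp) by distance from the nearest listed start of the host (horizontal axis, kb, positive downstream). The counts peak in the first bins downstream of the start, where the median offset of the 238 peaks within 1 kb is 180 bp.

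Whether a host was also occupied at its outer 5′ end differed with the kind of deep peak it held. A peak within 1 kb of that end was present in 19.6% (14.3 to 25.8) of the 199 hosts with a peak at an internal start and in 36.1% (30.0 to 42.4) of the 244 hosts whose deep peaks were all farther from listed starts, against 25% (24.1 to 25.8) of the 10517 genes with deep interior and no deep peak. Peaks at the outer 3′ end were rare in each of these groups, at 0.503%, 2.46% and 1.04% in the same order. In 88 of the 199 hosts (44.2%) RefSeq also listed a start within 1 kb of the outer 5′ end, and in 111 it did not. That count was not made for the 244 hosts or the 10517 genes, so its part in the difference was not tested. Over both ends and all hosts, 29.9% (26.1 to 33.9) of the 552 hosts had a peak within 1 kb of a boundary of their own, against 25.1% (24.3 to 25.8) of the other genes with interior and 25.2% of all of them. The difference varied with gene length. At 10 to 20 kb the share was 48.6% (31.9 to 65.6) of hosts against 22.7% (21.3 to 24.1) of others, and above 500 kb 22.9% (10.4 to 40.1) against 9.90% (6.06 to 15). At 200 to 500 kb it was 32.2% (22.6 to 43.1) of hosts against 17.9% (15.1 to 21.0) of others, at 20 to 50 kb 26.0% against 25.7%, and at 100 to 200 kb 24.2% against 26.3%.

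Deep intragenic peaks lay toward the 5′ side of their hosts. Of the 663 peaks with a single host of known strand, 404 (60.9%, 57.1 to 64.7) were closer to the 5′ end than to the 3′ end, at a median of 28.7 kb from the 5′ end and 40.6% of the gene's length. The share was 67.7% (61.3 to 73.6) for peaks at internal starts and 57.2% (52.4 to 62.0) for those farther from listed starts. The distance from coding boundaries was required alike at both ends.

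**Figure D2:**
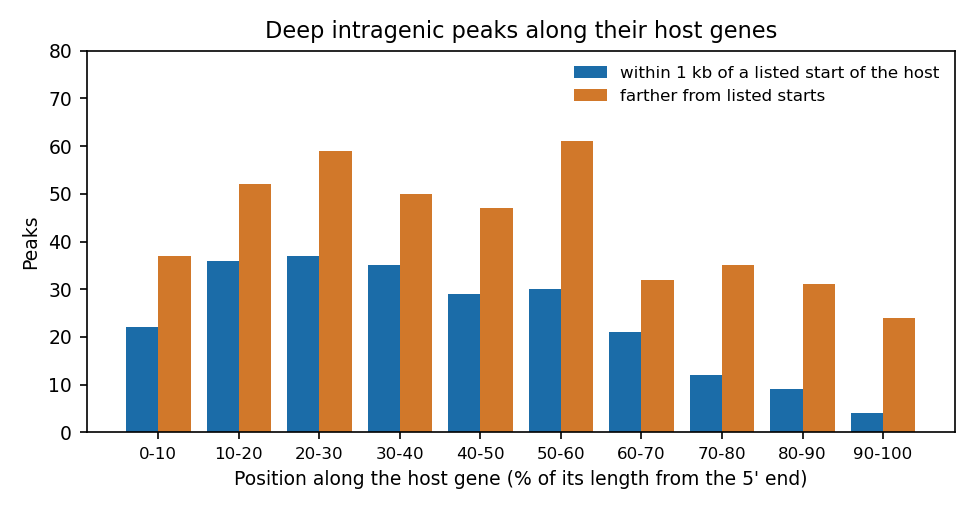
Number of deep intragenic peaks (vertical axis) in each 10% of the host gene's length from its 5′ end (horizontal axis, %), with blue bars for peaks within 1 kb of a listed start and orange bars for those farther away. Blue bars fall to 4 peaks in the last 10%, and orange bars are highest at 50-60% with 61 peaks.

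Deep intragenic peaks were slightly weaker and narrower than the rest of the list. Median fold was 3.61 (interquartile range 3.20 to 4.13) for deep intragenic peaks, against 3.72 (3.30 to 4.34) for the 7456 other peaks. Median width was 280 bp (229 to 399) for deep intragenic peaks and 311 bp (238 to 459) for the others, with widths of 200 to 5516 bp and 200 to 8992 bp. A fold of 5 or more was reached by 72 deep intragenic peaks (8.35%), against 776 others (10.4%), and 35 (4.06%) were 1 kb or wider, against 338 (4.53%). The ChIP pileup at the summit had a median of 36 for deep intragenic peaks and 38 for the others, and 741 of the 862 counting intervals included the median fold of the deep peaks, so most single peaks could not be ranked against each other. The expected level from input was the genome background of 8.68 at 52.3% (48.9 to 55.7) of deep intragenic peaks and 46.6% (45.4 to 47.7) of the others, and a higher local input level at the rest. The 1079 peaks outside coding genes had the same median fold of 3.61 and a median width of 287 bp, but 7.78% of them were 1 kb or wider and 61.1% had an expected level at the genome background.

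At the distance limit, 47 deep intragenic peaks lay 5.0 to 5.5 kb from a coding boundary, with a median fold of 3.69 and a median width of 323 bp. The 50 peaks just outside the rule, 4.5 to 5.0 kb away, had 3.82 and 320 bp. The nearest on either side were a peak in Col1a1 at 5006 bp, of fold 3.0, and a peak in Wnt5a at 4992 bp, of fold 4.13. The median distance over all 862 was 18.7 kb. There were 420 peaks more than 20 kb from a coding boundary, 61 more than 100 kb and 21 more than 200 kb.

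Most hosts had 1 deep peak, but more than a few had several. There were 384 hosts with 1 peak, 93 with 2, 34 with 3, 23 with 4 and 18 genes with 5 to 11, so 168 hosts (30.4%, 26.6 to 34.5) had at least 2. They held 484 peaks, and 13 peaks lay in more than 1 gene and counted for each. Neighbouring summits of a host were a median of 1202 bp apart (interquartile range 636 to 9256). Of the 324 gaps, 147 (45.4%) were under 1 kb and 230 (71.0%) under 5 kb. Peaks that were alone in their host had a median fold of 3.67 and a median width of 266 bp, and those in hosts with 2 or more had 3.51 and 292 bp.

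Host genes were long. Their median length was 92.2 kb, against 32.4 kb for the other genes with deep interior, and 4.0% of all 13803 genes with deep interior were hosts. The share of genes that were hosts grew with length, being 0.981% at 10 to 20 kb, 5.64% at 50 to 100 kb and 15.4% (11.0 to 20.8) above 500 kb. The density of deep peaks went the opposite way, at 3.25 per Mb of interior (2.44 to 4.24) in genes of 10 to 20 kb, 1.45 (1.27 to 1.66) at 50 to 100 kb and 0.267 (0.198 to 0.352) above 500 kb, with 1.02 (0.953 to 1.09) over all 845 Mb. Among chromosomes, density was highest on chromosome 11 at 1.91 per Mb (1.51 to 2.37), lowest among autosomes on chromosome 19 at 0.545 (0.282 to 0.952), and 0.105 (0.0286 to 0.269) on chromosome X. The 4 peaks on chromosome X were in Bcor, Araf, Elf4 and Zfx, named after their values were seen, and 3 of them lay at an internal start.

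**Figure D3:**
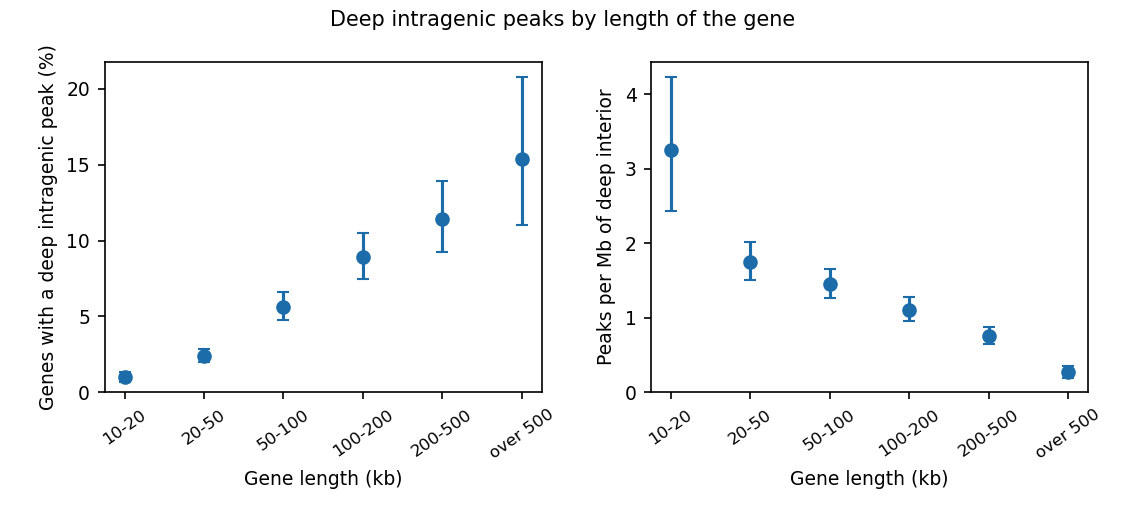
Share of genes with deep interior that had a deep intragenic peak (left, %) and deep intragenic peaks per Mb of deep interior (right), both by gene length in kb, with points for the value and bars for exact 95% intervals. The share grows to 15.4% above 500 kb, where the density is lowest at 0.267 per Mb.

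Myh9, the heavy chain of non-muscle myosin IIA, had the most deep peaks, 11 in 37.5 kb of its 81.6 kb on chromosome 15. Their folds ranged from 2.41 to 3.79, none lay within 1 kb of a listed start, and Myh9 also had a peak at its own boundary. Plec, which encodes the cytoskeletal linker plectin, had 6 deep peaks of fold 2.85 to 4.27 within 11.8 kb. In 9 of the 11 Myh9 peaks and all 6 Plec peaks the expected level was a local input level above the genome background of 8.68, 8.72 to 13.0 in Myh9 and 9.43 to 10.8 in Plec.

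Col1a1, the main collagen chain of dentin and bone, had 8 deep peaks in 6.82 kb of interior on chromosome 11, and 15 peaks over its whole 16.8 kb. Fold was 2.98 to 4.57 and width 222 to 609 bp. All 8 also had an expected level above the genome background, 8.84 to 10.7 against 8.68. The strongest lay at chr11:94947292-94947900, 5.35 kb from the nearer end. Most expected levels in Myh9, Plec and Col1a1 were thus above background, some only slightly, and the part of input in their peaks was not tested. Such levels were not particular to these genes, since 52.3% of all deep intragenic peaks were at background and the rest above it. Among other hosts, Kdm6b, Zfhx3, Nr3c1 and Unc5b also had no deep peak at background.

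The deep peaks of Runx1 and Runx2, genes for runt-domain factors of blood and bone, formed clusters. Runx1 had 10, of fold 3.30 to 5.76. Of these, 8 lay between 92693654 and 92698521 on chromosome 16, around an internal start, and 3 of them were within 1 kb of it; the strongest, at chr16:92695162-92695846, was 1784 bp downstream. In Runx2, the master regulator of osteoblast and odontoblast differentiation, 5 peaks of fold 3.20 to 6.78 lay within 6.57 kb, 77329 to 83900 bp from the nearest listed start. A host with a listed start can have others that are not listed. That distance therefore does not show that the cluster was far from every Runx2 promoter. One of them, at chr17:44732776-44735636, was 2861 bp wide.

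The remaining hosts among those with most peaks were Aopep, an aminopeptidase gene, with 7 peaks of fold 2.93 to 4.13, Dnm3, a dynamin gene, with 6, and the overlapping pair Cmss1 and Filip1l, which shared the same 6. Dnm3 also holds a microRNA locus on its opposite strand, Mir199a-2 and Mir214, known to be active in mesenchyme. Of its peaks, 4 lay between 162218826 and 162224376 on chromosome 1 (mm10), a stretch that includes Mir214 and begins just past Mir199a-2. Their summits were 1282 to 2868 bp from the nearest lncRNA gene boundary, so they passed the 1 kb limit but would not pass one of 5 kb. They are counted for Dnm3 by position alone, and which gene they belong to was not tested. A summit of fold 3.51 (2.45 to 4.89) was 78 bp from miR-214-5p, and a summit of fold 4.73 (3.5 to 6.26) was 1062 bp from miR-199a-3p. The mature sequences are given because peaks lay near these microRNAs, with the seed, bases 2 to 8, in capitals. No seed was shared among the 4.
miR-214-5p: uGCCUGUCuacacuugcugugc
miR-214-3p: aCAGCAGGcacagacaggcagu
miR-199a-5p: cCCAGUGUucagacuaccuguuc
miR-199a-3p: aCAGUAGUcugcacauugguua

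Other deep peaks lay near further annotated genes. Within 1 kb of the summit there was a microRNA gene for 5 peaks and a pseudogene for 13, among them the 5 peaks of Inhba, an activin subunit gene, which all lay inside a transcribed pseudogene, B230303A05Rik. Reads of such copies cannot be told apart from those of their parent where the sequences match. Whether that held for any of these peaks was not tested. The lowest folds were 4 peaks in Sfi1, a centrosomal gene, at 1.42 to 1.52. Their pileups were 199 to 230 and their expected levels 139 to 153, so both libraries were far above the usual level there. The Inhba and Sfi1 remarks were made after their values were seen.

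**Figure D4:**
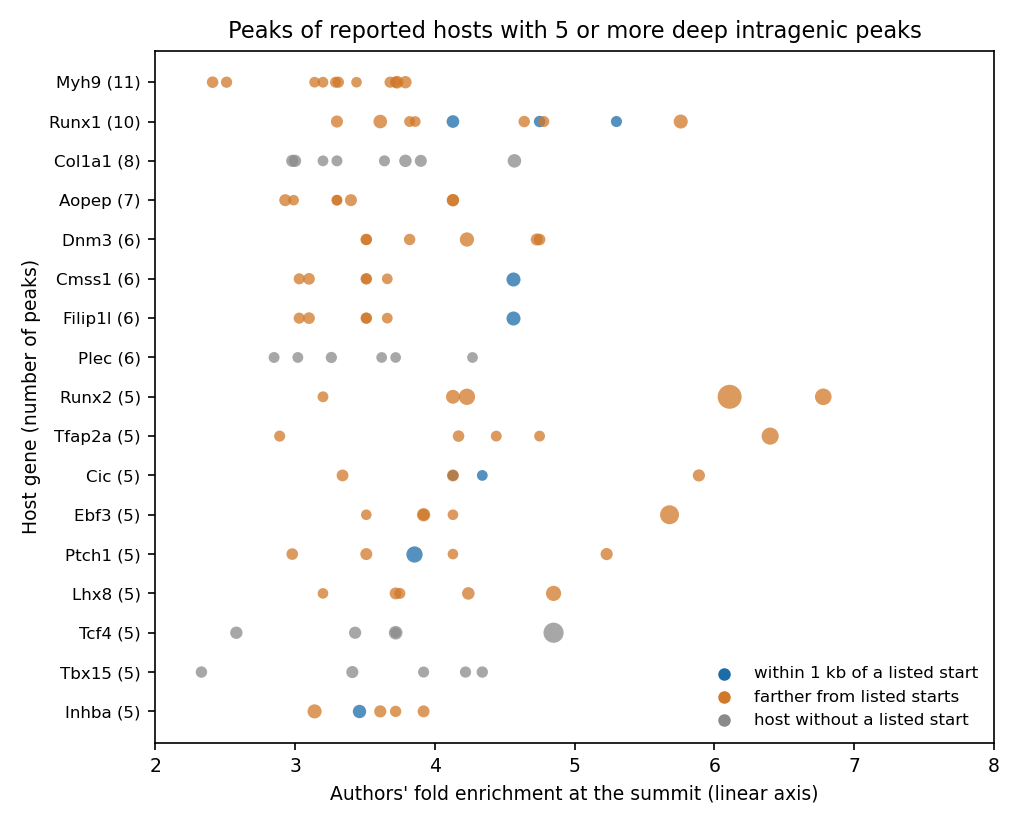
Authors' fold enrichment (horizontal axis, linear) of every deep intragenic peak in the reported hosts with 5 or more, 1 row per host with its number of peaks in brackets. Point area grows with peak width and colour gives the relation to listed starts. Most points lie between 3 and 5, and the highest is a Runx2 peak at 6.78.

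The 10 widest deep intragenic peaks all lay in genes for DNA-binding transcription regulators, and 1 of them, in Ubtf, was at an internal start. Among them were those in Sim1 (5516 bp, fold 7.54), Runx2 (2861 bp), Pax9 (2404 bp, fold 3.38), Sim2 (2284 bp, fold 7.23), Ubtf (2044 bp, fold 5.56), Lhx9 (1972 bp, fold 7.10), Tcf4 (1889 bp, fold 4.85), Ebf3 (1623 bp, fold 5.68) and Nr2f2 (1596 bp, fold 5.48). Sim1 and Sim2 encode bHLH-PAS factors, Lhx9 a LIM-homeodomain factor, Pax9 a paired-box factor needed for tooth formation, Ebf3 a helix-loop-helix factor and Ubtf the factor that drives ribosomal RNA transcription. The peaks in Sim1, Sim2 and Lhx9 were also among the 15 strongest, and the one in Runx2 was the neighbour of a peak that was. Pax9 had the lowest fold of the 10, 3.38 (2.58 to 4.34) on an expected level of 16.8, well above the genome background of 8.68.

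Of the 15 strongest not yet described, Pde10a, a cyclic nucleotide phosphodiesterase gene, had a peak of fold 7.02 (5.46 to 8.89) upstream of a listed start and 187565 bp from the nearest coding boundary, and Rere, a corepressor gene, had one of 6.51 (5.01 to 8.31) 288 kb from its 5′ end. Tfap2a, a neural-crest transcription factor gene, had one of 6.40 (4.92 to 8.19), 3545 bp downstream of a start. A Gata4 peak had the same fold as those in Tfap2a and Cops3.

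By gene list, the host share was above that of all genes in 21 of 24 lists and highest among dental mesenchyme factors. The intervals of 13 of the 21 included the share of all genes, and the lists were not matched to all genes on length, with which that share grew. The lists were also chosen with earlier results of these data known, so their shares are descriptions and not an independent test. At 10 kb from coding boundaries dental mesenchyme factors no longer ranked highest (17.6%, against 28.6% of nuclear receptors and coregulators). Of the 20 list members with deep interior, 10 were hosts (interval of the share 27.2 to 72.8%), against 4.0% of all genes with interior, and they held 32 peaks at a density of 16.5 per Mb (11.3 to 23.3), against 1.02 over all genes. The hosts included Tfap2a, Zfhx3, Lhx8, Tfap2b, Prrx1, Prrx2, Pitx1 and Pax9, most of them homeobox or AP-2 genes of neural-crest-derived jaw and tooth mesenchyme. Lhx8, a LIM-homeodomain gene of tooth mesenchyme, had 5 peaks with a highest fold of 4.85 (3.58 to 6.44), and Zfhx3, a zinc-finger homeobox gene, had 4 with a highest of 4.98 (3.70 to 6.57) at an internal start. Of the 32 peaks, 2 lay at internal starts. The median fold was 3.76, against 3.61 over all deep intragenic peaks.

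Odontoblast and mineralisation genes had 4 hosts of 17 (23.5%, 6.81 to 49.9) with 17 peaks, 14.1 per Mb (8.24 to 22.6), most of them in Runx1 and Runx2. Slc20a2, a phosphate transporter gene, had 1 peak of fold 4.13 (2.97 to 5.61), and Sparc, which encodes osteonectin, 1 of 3.82 (2.71 to 5.25). In the dental follicle and periodontal ligament list the host was Ebf3 with 5 peaks, 1 of 14 genes. Among AP-1 and immediate early genes it was Nr4a2, an orphan nuclear receptor gene, 1 of 8 genes that together had 0.0695 Mb of interior.

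Cytoskeletal genes formed the next group. Of 35 actin and myosin regulators, 11 were hosts (31.4%, 16.9 to 49.3) with 31 peaks, 4.53 per Mb (3.08 to 6.44), including the 11 in Myh9. Tpm1, a tropomyosin gene, had a highest fold of 4.80 (3.64 to 6.22), Dlc1, a GTPase-activating protein gene, 4.53 (3.33 to 6.03), and Tns3, a tensin gene, 4.06 (2.92 to 5.52). Of 25 focal adhesion and integrin genes, 4 were hosts (16.0%), Itgb5 and Itgb3, which encode integrin beta chains, and Pard3 and Bcar1, at 1.71 per Mb (0.554 to 3.98). Of 17 YAP and TEAD pathway genes, 3 were hosts (17.6%): Vgll4, a TEAD cofactor gene, with 4 peaks and a highest fold of 5.37 (4.02 to 7.03), Amotl1 with 3.72 and Lats2, which encodes a YAP kinase, with 3.20. Of 31 collagen and matrix genes, 4 were hosts (12.9%, 3.63 to 29.8), with 1 peak each in Col4a1, Col1a2 and Fbn1 at folds of 3.30 to 3.61 beside the 8 in Col1a1.

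In the Hedgehog list, the pathway named in the series title, 2 of 19 genes were hosts (10.5%, 1.30 to 33.1). Ptch1, which encodes the Hedgehog receptor and is itself a target of the pathway, had 5 peaks of fold 2.98 to 5.23 within 4.92 kb, 1 of them 174 bp downstream of an internal start. Gli2, a transcription factor of the pathway, had 1 peak of fold 3.48 (2.48 to 4.77). Of 28 TGF-beta and BMP genes, 5 were hosts (17.9%, 6.06 to 36.9), with a highest fold of 4.03 (2.88 to 5.49) in Tgfbr3, a TGF-beta co-receptor gene, 3.51 in Ltbp1, which encodes a latent TGF-beta binding protein, and 3.41 in Smad7, an inhibitory Smad gene with 4 peaks. Of 26 Wnt genes 3 were hosts, Wnt5a with a highest fold of 4.22 (3.10 to 5.61), Lgr6 and Tcf7l1. Of 13 Notch genes 2 were hosts, among them Rbpj, the DNA-binding effector, with 4 peaks of which 3 lay at an internal start. Igf1r and Map3k1 were the 2 hosts of 29 FGF, RTK and MAPK genes (6.90%). Hosts of lists with fewer than 3 were named after their values were seen.

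Among regulators of transcription and chromatin, 9 of 30 nuclear factor I, Ets, Maf and similar factors were hosts (30.0%, 14.7 to 49.4), led by Tcf4, Tcf12, Nfix and Bach2 at highest folds of 4.44 to 4.85. Of 23 nuclear receptors and coregulators, 7 were hosts (30.4%, 13.2 to 52.9). Nr2f2, an orphan receptor gene, had 3 peaks, and the retinoic acid receptor genes Rarb and Rara had highest folds of 4.54 (3.32 to 6.08) and 3.87 (2.79 to 5.23). Nr3c1, the glucocorticoid receptor gene, had 3 peaks and a highest fold of 3.80 (2.75 to 5.12). Of 40 other chromatin regulators 8 were hosts (interval of the share 9.05 to 35.6%), among them Kdm6b, a histone H3 demethylase gene, with 4 peaks and a highest fold of 4.63 (3.42 to 6.15), and Auts2, Hdac7 and Chd9. Of 27 SWI/SNF subunit genes 2 were hosts, Bicral and Smarcd3 with 1 peak each (7.41%, 0.910 to 24.3).

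Lists of other cell types had 0 to 2 hosts each. Of 12 dental epithelium genes 2 were hosts (16.7%, 2.09 to 48.4) at 3.83 peaks per Mb (0.463 to 13.8), among them Ambn, which encodes the enamel matrix protein ameloblastin. Endothelium had 1 host of 13, Ptprb (7.69%, 0.195 to 36.0), at 3.14 per Mb (0.647 to 9.17), and neurons and glia 1 of 12, Mbp (8.33%, 0.211 to 38.5), at 0.569 per Mb (0.0144 to 3.17). These shares were above the 4.0% of all genes, with intervals that included it. Blood and immune cells had 0 of 14, with an upper limit of 3.22 peaks per Mb, and skeletal and cardiac muscle 0 of 17, with an upper limit of 0.902 per Mb. These lists are short and do not hold every gene active in those cells. Runx1, a factor of blood as well as bone, was counted with its 10 peaks among odontoblast genes. Axon guidance genes had 4 hosts of 32 (12.5%), Unc5b, Nrp2, Nrp1 and Ephb3, at 0.721 per Mb (0.290 to 1.48). Very long neuronal genes, of 1178 kb median length, had 1 host of 32, Ptprd, at 0.0472 per Mb (0.00572 to 0.171), while all genes above 500 kb had 0.267 per Mb.

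**Figure D5:**
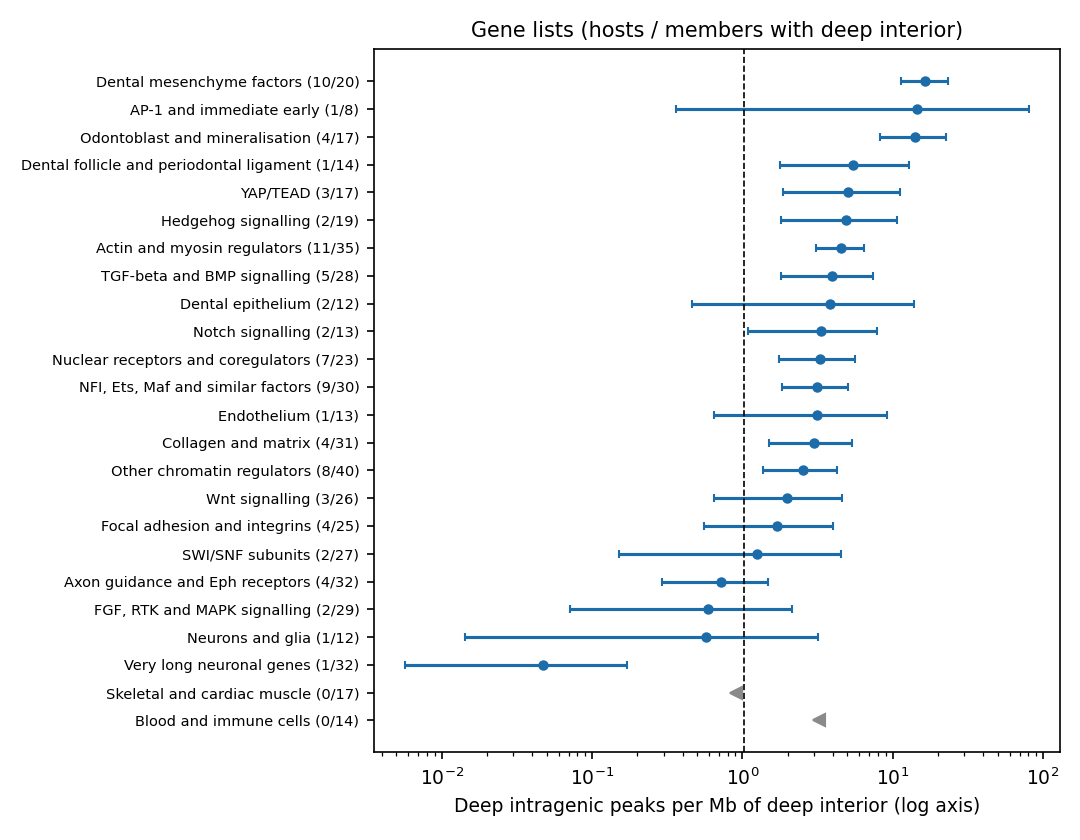
Deep intragenic peaks per Mb of deep interior (horizontal axis, log scale) for each gene list, with points for the value, bars for exact Poisson 95% intervals and a dashed line at 1.02 per Mb for all genes. Left-pointing triangles give upper limits where no peak was found. Dental mesenchyme factors stand highest at 16.5 per Mb, and very long neuronal genes lowest among lists with a peak at 0.0472.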

How the data were processed

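Chromatin of cultured dental mesenchyme cells was immunoprecipitated for Arid1b in 1 library and compared with 1 input library. The submitters' processing notes name MACS2 2.1.1, Bowtie2 2.2.5, FastQC 0.11.8 and Picard, with mm10 as the build and no parameters. The deposited peak list holds 1 row per peak, with the authors' fold of ChIP over input (a ratio), −log10 values of p and q, and a score that was not used. Pileups at summits and expected input levels were recovered from the authors' fold and −log10 p-value, with a largest error of 0.000162 in −log10 p. Exact Poisson 95% intervals of the pileup gave the interval of each fold. Shares have exact binomial (Clopper-Pearson) intervals and densities exact Poisson intervals.

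Gene boundaries came from a RefSeq table of GRCm38.p6 with 21887 protein-coding genes, of which 13803 had deep interior. Listed starts came from a RefSeq promoter table that covered 17492 of these genes and 10960 of those with interior. In counts of starts, a start was called internal where it lay in the deep interior of its gene. A deep peak was called at an internal start where its summit lay within 1 kb of any listed start of its host. Such a start can itself lie within 5 kb of a coding boundary, as in Ubtf. Motifs, GC content and CpG were counted in 300 bases, 250 before and 50 after the start, and the ratio of observed to expected CpG used the C and G content of the same bases. Work was done in Python 3.11.15 with numpy 2.4.6, pandas 2.3.3, scipy 1.17.1 and matplotlib 3.10.9, and the placement of summits and the recovery of pileups were tested on simulated data. Exons, introns and peak sequences were not used here.

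The rule for the peaks and the 24 gene lists were chosen with earlier results of these data known, and some lists share members. Genes were named if they were hosts of the 15 peaks of highest fold or of the 10 widest, among the 10 hosts with most peaks, or among the up to 4 hosts of highest fold in a list with at least 3 hosts. Ties in fold were ordered by position. A few genes that met this rule are not reported here, though they remain in the counts. Alternatives changed both distances, the q, fold and expected-level limits, the merging of close peaks and the use of the summit or the whole peak. Coordinates are 1-based.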

Additional observations from a re-analysis of the deposited data

How the results depend on the processing

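Of 92 values of the main results under the alternatives, 56 stayed within their limits and 36 moved. Requiring 2 kb in place of 5 kb from coding boundaries gave 1397 peaks in 877 hosts, 4.99% of genes with interior, 1.49 peaks per Mb, a median width of 301 bp and 39.5% of peaks at internal starts. Requiring 10 kb gave 0.831 per Mb and 30.9% at internal starts. Dropping the lncRNA condition gave 1.11 per Mb, and requiring 5 kb from lncRNA genes gave 0.913 per Mb and 3.53% of genes. A −log10 q of at least 5 gave 0.852 per Mb, 3.54% of genes and a median fold of 3.72. A fold of at least 5 left 72 peaks in 65 hosts, 0.471% of genes and 0.0852 per Mb, with a median fold of 5.58 and width of 577 bp; 10.8% of hosts had 2 or more, 4.62% a boundary peak that passed the same limit, and 44.1% of peaks lay at internal starts. Merging peaks closer than 500 bp gave 0.827 per Mb, a median width of 296 bp and 20.2% of hosts with 2 or more. Peaks whose expected level was the genome background numbered 451, in 347 hosts, 2.51% of genes and 0.534 per Mb, with a median fold of 3.72, 21.3% of hosts with 2 or more and 14.1% with such a boundary peak. With start windows of 500 bp and 2 kb, chosen after seeing the data, 29.3% and 39.1% of peaks lay at internal starts. Of the 24 lists, 8 had a host share above that of all genes at a fold of at least 5, against 21 as reported. Of 216 list counts, 70 were labelled as moved. Every count of 0 got that label, including those of blood and immune cells and of skeletal and cardiac muscle. These lists had 0 hosts under every setting and so did not change. Dental mesenchyme factors had 16 hosts of 26 at 2 kb, 3 of 17 at 10 kb, 2 of 20 at a fold of at least 5 and 7 of 20 at background levels. Their share was the highest of all lists except at 10 kb and at a fold of at least 5, where odontoblast genes had 2 of 17. At 10 kb, 3.93% of all genes with interior were hosts, within the interval of the share as reported (3.68 to 4.34). Dental mesenchyme factors had 3 hosts of 17 at that setting, against 10 of 20 as reported. Why lists had fewer hosts under stricter limits was not tested. With 1 library per group no spread between replicates was known, and no paired analysis was possible because the groups share fewer than 2 replicate numbers and no result comes from a test. Hosts without a listed start were outside all statements on starts, and a median pileup of 36 left most single folds unresolved.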
